A study of Homo sapiens with 6 samples.

Results

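The genes of the large (60S) ribosomal subunit were followed in T98G cells, a human glioblastoma line, after silencing of the kinase DYRK1A. Members were the human genes whose symbol is RPL followed by a number, with or without a final A, or RPLP0 to RPLP2, which gave 46 of the 23026 genes with a normalized value, spread over 18 chromosomes. The cells had been infected in suspension with a lentivirus for a short hairpin RNA, either a control hairpin (shControl, 3 libraries) or one against DYRK1A (shDYRK1A, 3 libraries). Both groups had gone through puromycin selection and recovery, and equal numbers of T98G cells had then been mixed with a constant number of Drosophila Kc167 cells as an external scale. The libraries of each group carry the names 1A, 1B and 1C, and nothing in the labels says that they came from separate cultures, so the p-values measure only the spread between these libraries, which may be technical.

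The large subunit joins amino acids at its peptidyl transferase center, which is made of rRNA, and sends the growing chain out through a tunnel lined by rRNA and proteins. Its proteins are made in the cytoplasm, imported into the nucleolus and built onto rRNA one by one, so that cells normally produce them in balanced amounts. Their genes are scattered over the genome, are among the most active in dividing cells, and share a start site that lies within a run of pyrimidines.

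Human gene counts ranged from 33708297 to 42154438 per library. DYRK1A, the hairpin target, was at 46.3, 46.7 and 47.2 counts per 1000000 human gene counts (CPM) in the shControl libraries and at 40.4, 33.8 and 38.6 CPM in the shDYRK1A libraries. All shDYRK1A libraries were below all shControl libraries, by a log2 fold change of -0.31 ± 0.07 (SE, n = 3 and 3) as a share of human counts, with an edgeR adjusted p of 0.00188. With the spike-in scaling it was -0.73 ± 0.15 (adjusted p = 5.33e-06). The residual level of the transcript was therefore well above zero. Of 7 glioblastoma markers, VIM was abundant at 1530 to 1975 CPM and CD44 at 1401 to 1591 CPM, NES and OLIG2 were at 1.06 to 2.02 CPM, and GFAP, SOX2 and S100B were below 0.1 CPM in every library. The markers of other cells stayed low, with EPCAM, an epithelial gene, highest at 0.683 to 1.68 CPM and CD3E at 0. The shDYRK1A 1B library had the fewest human counts and the largest share of unmapped reads, 15.6% beside 8.44% to 11.9% in the others.

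The large subunit genes were among the most abundant transcripts, and 42 of the 44 that passed a filter on low values were in the top 5% of tested genes by mean CPM. Per kilobase of coding sequence, the highest levels in shControl were those of RPL41 (4391 ± 136 CPM per kb, SD, n = 3), RPL37A (3504 ± 193) and RPL39 (2941 ± 250). RPL41 encodes a peptide from a coding sequence of only 75 bases, most of its mRNA being untranslated, so its level per coding length is inflated beside the others. The gap between RPL37A and RPL39 was larger than their SDs together, whereas RPL39 and the next in the order, RPLP1 (2682 ± 184) and RPL37 (2637 ± 132), lay within theirs. These coding sequences are short too, at 276 bases for RPL37A, 153 for RPL39, 342 for RPLP1 and 291 for RPL37. Their places thus depend on the division by coding length as well, and RPL39 was at 450 CPM in shControl. Most of the order was shallow, and the genes from RPL41 down to RPL36 (799 ± 54.6 CPM per kb) formed a continuous series.

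The 3 least abundant members stood far below that series. RPL17, a protein at the rim of the exit tunnel, was at 7.49, 5.27 and 6.75 CPM in shControl and at 5.93, 5.04 and 4.28 CPM in shDYRK1A. RPL36A was at 10.3, 9.70 and 9.13 CPM in shControl and at 6.96, 5.49 and 6.01 CPM in shDYRK1A, with no overlap of the groups. Both failed the filter, a mean spike-in normalized value above 10 CPM, and were not tested. RPL26, with 30.8 ± 5.86 CPM in shControl (SD, n = 3), passed it, while every member with no shared coding base reached at least 252 CPM in shControl.

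These low values went together with overlapping gene models. In the GENCODE v29 annotation, exons of another gene on the same strand covered 100% of the coding bases of RPL17 (the gene is RPL17-C18orf32), 94.3% of those of RPL36A (RPL36A-HNRNPH2) and 71.0% of those of RPL26 (AC135178.2). The counts of RPL17-C18orf32 and RPL36A-HNRNPH2 were 0 in all libraries, and AC135178.2 did not exceed 0.119 CPM. RPL22 shares 59.9% of its coding bases with AL031847.2, which, unlike the partner genes named above, has no entry in the counts. The level of RPL22 was in the range of the other members. The counts of RPL17, RPL36A and RPL26 are uncertain because of the overlap, and its part in their level was not tested.

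**Figure D1:**
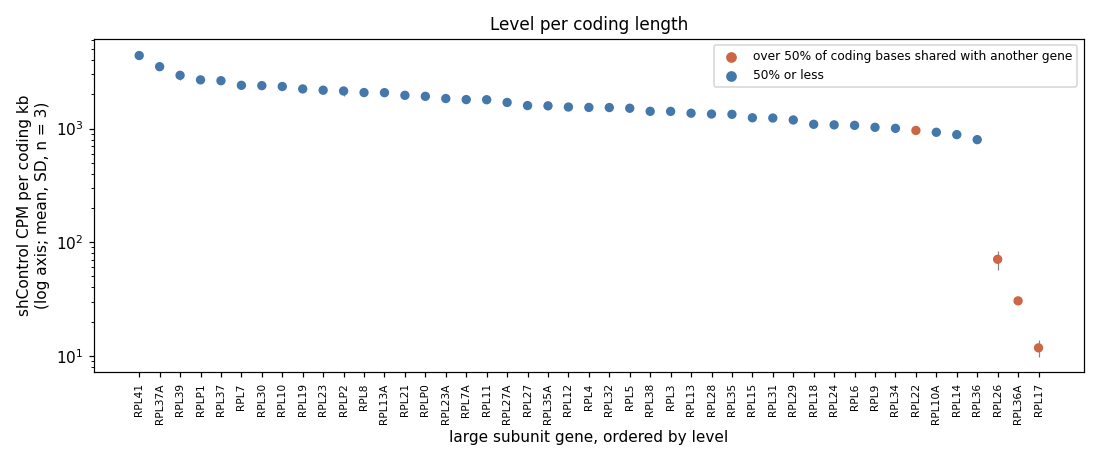
Mean shControl level of 45 of the 46 large subunit genes in CPM per kilobase of coding sequence on a log axis, with the SD of 3 libraries as bars. Genes that share over 50% of their coding bases with another gene are in orange. RPL26, RPL36A and RPL17 lie below the continuous series that ends with RPL36 at 799 CPM per kb.

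With counts scaled by the authors' spike-in size factors, which put libraries on a scale per T98G cell number, the large subunit genes were lower in shDYRK1A as a group. Their normalized counts summed to 1830688, 1743338 and 1470360 in the control libraries, and to 1309733, 1248658 and 1170410 after silencing. The groups did not overlap, and the mean difference was -0.43 on the log2 scale. The scale stands for RNA per cell only as far as equal cell numbers were mixed, which was not tested here.

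Of the 44 tested members, 39 were lower with spike-in scaling at an adjusted p below 0.05 and 0 were higher, beside 63.4% of all 9697 genes lower and 1.08% higher. The median log2 fold change was -0.43 for the members and -0.40 for all genes tested. With the added demand of a log2 fold change below -0.7, 1 member was left, RPL26, beside 14.3% of all genes. The count of 39 fell to 25 without shControl 1A and to 24 without shDYRK1A 1C. The share of all genes lower in those fits is not given here, so the fall cannot be read as particular to the members. The spike-in scale varied between libraries of the same group, and the SE of single members was 0.12 to 0.16 on this scale.

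As a share of human counts the picture was balanced. The 46 genes took 3.81%, 3.64% and 3.67% of human counts in the shControl libraries, and 3.57%, 4.0% and 3.51% in the shDYRK1A libraries. The shDYRK1A 1B library lay above every other library and the remaining shDYRK1A libraries lay below all shControl libraries. The group means were 3.71% ± 0.0883 and 3.69% ± 0.264 (SD, n = 3). The latter minus the former was -0.0106 percentage points, and -0.162 without shDYRK1A 1B. Counting error was small beside this spread: the 95% Wilson interval of the lowest share was 3.51% to 3.52%, and it covers counting error only.

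On this scale 6 members were lower and 3 were higher in shDYRK1A at an adjusted p below 0.05, out of 44 tested, beside 24.8% of all genes lower and 30.2% higher. The remaining 35 did not pass. By CPM, 6 of the 44 were lower in every shDYRK1A library than in every shControl library and 4 were higher. Among all 9697 genes 2843 were lower and 3249 higher in this way, so groups without overlap were common. The median log2 fold change was 0.00 for the members, with quartiles at -0.08 and 0.08, and 0.02 for all genes, with quartiles at -0.16 and 0.20. Without shDYRK1A 1B, 15 members were lower and 3 higher, beside 25.3% and 34.4% of all genes, and the median of the members was -0.07. Of those 15, 5 were among the 6 lower with every library, and the one lost was RPL26 (log2 fold change -0.70, adjusted p = 0.0588). The count of higher members was 5 without shDYRK1A 1A and 6 without shDYRK1A 1C, fits for which the share of all genes is not given here.

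The order of the members within the subunit hardly depended on the scaling, since each scaling divides a library by 1 number. The rank by fold change was identical for 35 of the 44 genes and differed by at most 3 places for the rest. RPL26, RPL5, RPL14, RPL9 and RPL24 were the lowest on the spike-in scale, and RPL28, RPL41, RPLP1 and RPLP2 were among the 5 highest.

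**Figure D2:**
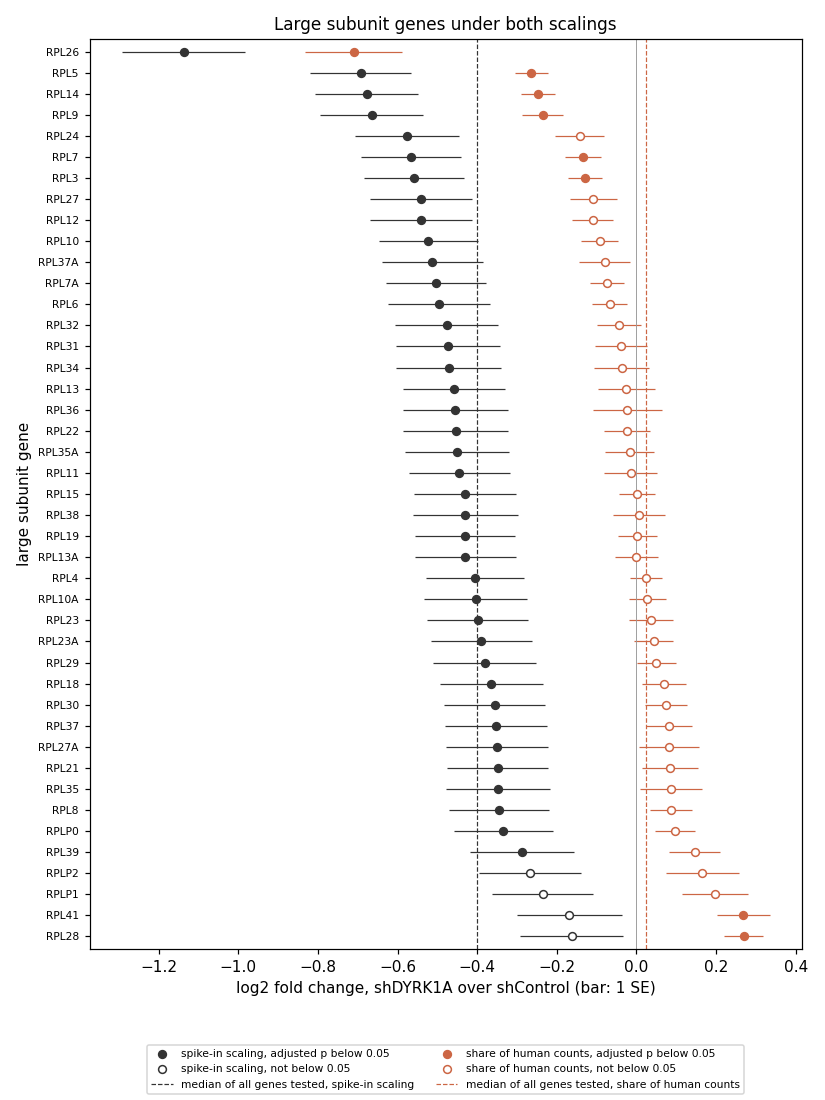
Log2 fold change of shDYRK1A over shControl for 43 of the 44 tested large subunit genes with 1 SE, with spike-in scaling in black and as a share of human counts in orange, filled where the adjusted p was below 0.05. Dashed lines are the medians of all 9697 genes tested, -0.40 and 0.02. The 2 series run in parallel, and RPL26 stands apart at the lower end.

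RPL26 (ENSG00000161970, chr17:8377516-8383250, minus strand, GRCh38) encodes a protein at the rim of the exit tunnel. It was at 37.5, 26.4 and 28.5 CPM in shControl and at 21.2, 18.5 and 16.7 CPM in shDYRK1A. The groups did not overlap, although shControl 1A stood above the other controls. The log2 fold change was -0.71 ± 0.12 (SE) as a share of human counts (adjusted p = 0.000435) and -1.14 ± 0.16 with spike-in scaling (adjusted p = 1.17e-11). These values rest on 624 to 1480 reads per library, the fewest of any tested member, and on a gene that shares most of its coding bases with another model.

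RPL5 (ENSG00000122406, chr1:92831983-92841924, plus strand), which carries 5S rRNA into the subunit together with RPL11, was the lowest of the abundant members. Its level was 1397, 1314 and 1324 CPM in shControl and 1116, 1149 and 1095 CPM in shDYRK1A, with the groups well apart. The log2 fold change was -0.26 ± 0.04 as a share of human counts (adjusted p = 0.000249) and -0.69 ± 0.13 with spike-in scaling (adjusted p = 4.99e-07).

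RPL14 (chr3:40457292-40468587, plus strand) was at 590, 559 and 563 CPM in shControl and at 469, 499 and 474 CPM in shDYRK1A. RPL9, which lies near the base of the stalk, was at 625, 569 and 579 CPM in shControl and at 505, 526 and 475 CPM in shDYRK1A. Neither gene had overlapping groups, shDYRK1A 1B being the highest of its group for both. As a share of human counts the log2 fold change was -0.25 ± 0.04 for RPL14 (adjusted p = 0.000484) and -0.24 ± 0.05 for RPL9 (adjusted p = 0.00202). RPL5, RPL14 and RPL9 passed the test without any single library.

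RPL7 and RPL3 were lower by less. RPL7 was at 1835, 1799 and 1726 CPM in shControl and at 1566, 1714 and 1605 CPM in shDYRK1A, so that shDYRK1A 1B lay just under the lowest control. RPL3, which reaches from the surface of the subunit towards the peptidyl transferase center, was at 1683, 1721 and 1732 CPM in shControl and at 1505, 1649 and 1542 CPM in shDYRK1A. Their log2 fold changes were -0.13 ± 0.05 (adjusted p = 0.025) and -0.13 ± 0.04 (adjusted p = 0.0245). Each was called in only 2 of the 6 fits that left out 1 library. For RPL7 the call was lost without shControl 1A, shControl 1B, shDYRK1A 1A or shDYRK1A 1C, with log2 fold changes from -0.17 to -0.11 over the 6 fits. For RPL3 it was lost without shControl 1B, shControl 1C, shDYRK1A 1A or shDYRK1A 1C, with log2 fold changes again from -0.17 to -0.10.

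At the other end, RPL28 (ENSG00000108107, chr19:55385345-55403250, plus strand), a protein found in eukaryotic but not bacterial ribosomes, was at 569, 554 and 532 CPM in shControl and at 650, 707 and 639 CPM in shDYRK1A. RPL41 (chr12:56116586-56117943, plus strand), the smallest ribosomal protein, at the contact between the subunits, was at 336, 335 and 318 CPM in shControl and at 370, 448 and 371 CPM in shDYRK1A. Every shDYRK1A library was above every shControl library for both. Their log2 fold changes as a share of human counts were 0.27 ± 0.05 (adjusted p = 0.000616) and 0.27 ± 0.07 (adjusted p = 0.00488), and both passed the test without any single library. For RPL41 leaving out shDYRK1A 1B gave 0.17.

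With spike-in scaling RPL28 and RPL41 did not pass in either direction, at -0.16 ± 0.13 (adjusted p = 0.249) and -0.17 ± 0.13 (adjusted p = 0.242). On that scale they were thus among the 5 members not called lower, together with RPLP1 and RPLP2.

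**Figure D3:**
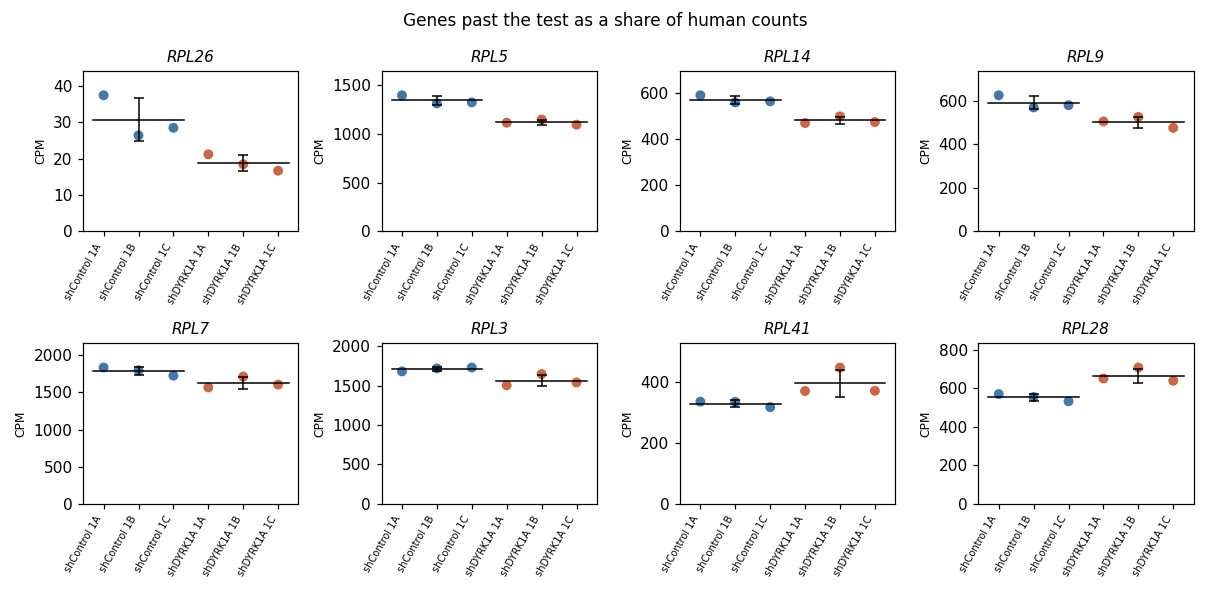
CPM of 8 large subunit genes past the test as a share of human counts, in each shControl (blue) and shDYRK1A (orange) library, with the group mean as a line and the SD as a bar. Every panel starts at 0. The 6 genes from RPL26 to RPL3 are lower and RPL41 and RPL28 higher in all shDYRK1A libraries than in all shControl libraries. Of all 9697 genes tested, 2843 are lower and 3249 higher in this way.

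The members were also taken by their place in the subunit, where counts of called genes stand beside 24.8% of all genes lower and 30.2% higher as a share of human counts, and 63.4% lower with spike-in scaling. The stalk, which recruits the translation factors, was taken with its base as RPLP0, RPLP1, RPLP2 and RPL12. None of these 4 genes passed the test as a share of human counts, at a median log2 fold change of 0.13. RPL9, lower as a share at -0.24 (adjusted p = 0.00202), lies near the stalk base but was not in this list. RPLP1, an acidic stalk protein, was at 970, 848 and 934 CPM in shControl and at 977, 1223 and 956 CPM in shDYRK1A, and its log2 fold change was 0.20 ± 0.08 (adjusted p = 0.0599). Its partner RPLP2 was at 787, 665 and 765 CPM in shControl and at 785, 971 and 730 CPM in shDYRK1A (0.16 ± 0.09, adjusted p = 0.145). In both genes shDYRK1A 1B was far above the other libraries, and without it the fold changes were 0.08 and 0.04. RPLP0, which anchors them, was at 0.10 ± 0.05 (adjusted p = 0.12), and RPL12, at the stalk base, was at -0.11 ± 0.05 (adjusted p = 0.0822). RPL12 was lower without shDYRK1A 1B, at -0.16 (adjusted p = 0.000994), beside 25.3% of all genes lower. In that fit the median of the 4 genes was 0.04. With spike-in scaling RPLP0 and RPL12 were lower and the other 2 did not pass.

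Of the 5S ribonucleoprotein pair, RPL5 passed the test as a share of human counts and RPL11 did not. RPL11 was at 1018, 895 and 961 CPM in shControl and at 928, 1048 and 870 CPM in shDYRK1A, with overlapping groups and a log2 fold change of -0.01 ± 0.07 as a share of human counts (adjusted p = 0.871). The log2 ratio of RPL5 to RPL11 within a library, which needs no scaling, was 0.46, 0.55 and 0.46 in shControl and 0.27, 0.13 and 0.33 in shDYRK1A. All shDYRK1A values were below all shControl values, by 0.25 on average and by 0.19 without shDYRK1A 1B. For this difference the two-sided exact permutation p was 0.1, the smallest that 3 libraries against 3 allow, and 0.3 after adjustment over the 3 ratios computed. The ratios of RPLP1 to RPLP2 and of RPLP1 to RPLP0 differed by 0.03 and 0.10 (exact permutation p = 0.4 for each, adjusted p = 0.4).

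RPL10A, the protein of the L1 stalk through which spent tRNA leaves, was at 617, 598 and 597 CPM in shControl and at 594, 652 and 600 CPM in shDYRK1A. The groups overlapped, and the fold change of 0.03 ± 0.05 did not pass (adjusted p = 0.635). Near the peptidyl transferase center 1 of 3 genes was lower as a share of human counts, RPL3. RPL10, which is added late in assembly, was at -0.09 ± 0.05 (adjusted p = 0.109), and RPL8 at 0.09 ± 0.05 (adjusted p = 0.187). Without shDYRK1A 1B, 2 of the 3 were lower, RPL3 and RPL10 (-0.13, adjusted p = 0.00507 for RPL10), beside 25.3% of all genes. All 3 were lower with spike-in scaling.

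Along the exit tunnel and its rim, 7 of 8 genes were tested and RPL26 was the one past the test as a share of human counts. The other 6, RPL4, RPL19, RPL23A, RPL31, RPL35 and RPL39, had log2 fold changes from -0.04 (RPL31) to 0.15 (RPL39, adjusted p = 0.0677), and RPL4, the most abundant member by CPM, was at 0.02 ± 0.04 (adjusted p = 0.623). Without shDYRK1A 1B, RPL31 was the one past the test as a share, lower at -0.13 (adjusted p = 0.00715). RPL26 did not pass in that fit (adjusted p = 0.0588), in which 25.3% of all genes were lower. All 7 tested were lower with spike-in scaling, beside 63.4% of all genes. Among 4 genes at the interface with the small subunit, RPL41 was higher and RPL24, whose product makes a bridge to that subunit, was at -0.14 ± 0.06 (adjusted p = 0.0659). RPL24 was at 540, 498 and 485 CPM in shControl and at 449, 503 and 429 CPM in shDYRK1A, so that only shDYRK1A 1B overlapped the controls, and without that library its adjusted p was 0.000909. RPL23 and RPL30, the rest of this group, were at 0.04 ± 0.06 and 0.07 ± 0.05 (adjusted p = 0.605 and 0.243).

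To compare the members free of any scaling of the libraries, each was also taken as a percentage of the summed counts of all 46. By this measure 12 of the 44 tested genes were lower in every shDYRK1A library than in every shControl library and 11 were higher, beside 22.4% and 26.8% of all genes set against the same sum. RPL5 fell from 3.67%, 3.61% and 3.61% of the subunit's counts in shControl to 3.12%, 2.87% and 3.12% in shDYRK1A. RPL24, RPL27, RPL12, RPL10, RPL6 and RPL32 joined the 6 called genes on the lower side. On the higher side RPLP0, RPLP1, RPL8, RPL18, RPL23, RPL30, RPL37 and RPL39 joined the 3 called genes.

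**Figure D4:**
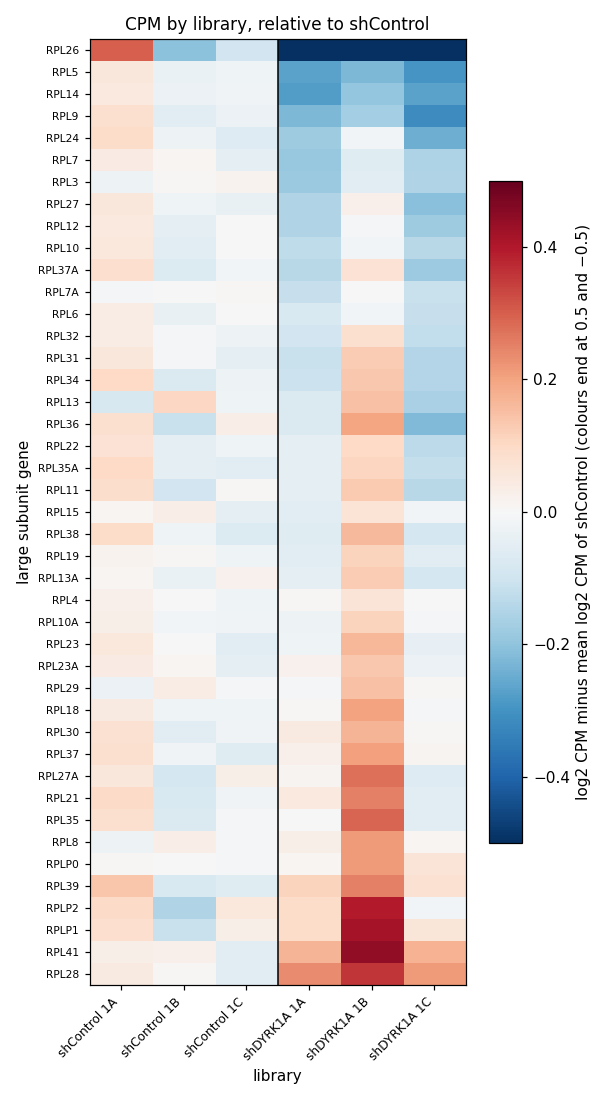
CPM of 43 of the 44 tested large subunit genes in each library as the log2 difference from the mean of the shControl libraries, ordered by fold change with spike-in scaling, blue for lower and red for higher. The shDYRK1A 1B column is redder than the columns of the other shDYRK1A libraries for nearly all genes, and the rows at the top are blue and those at the bottom red in all shDYRK1A columns.

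The shDYRK1A 1B library was above both other shDYRK1A libraries for 43 of the 44 genes by CPM, and it was the highest of all 6 libraries for 31. Its log2 distance from the mean of those libraries had a median of 0.19 and ranged from -0.02 to 0.36. This distance was larger for short genes: Spearman's rho with log2 coding length was -0.60 across the 44 genes, a description of genes that share a library. In shControl 1A the distance from the other controls had a rho of -0.65 with coding length. With the GC content of the coding sequence the rho was -0.51 for shControl 1A and 0.31 for shDYRK1A 1B. The fold change as a share of human counts had a rho of -0.33 with coding length, 0.39 with GC content and -0.35 with the number of annotated pseudogenes. Without shDYRK1A 1B these were -0.23, 0.34 and -0.28. The part of coding length, GC content and pseudogenes in the fold changes was not tested.

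**Figure D5:**
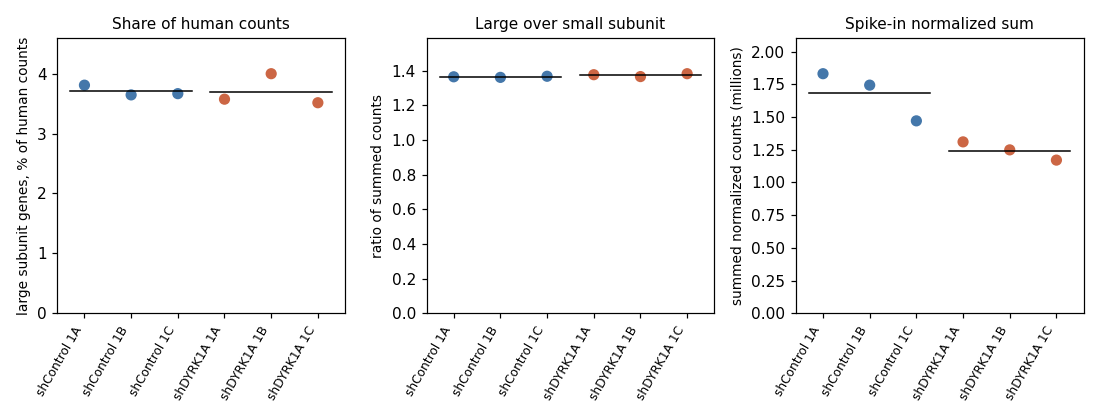
Large subunit genes by library as a percentage of human counts, as the ratio of their counts to those of the small subunit genes, and as summed spike-in normalized counts, for shControl (blue) and shDYRK1A (orange), with group means as lines and all axes from 0. The share is highest in shDYRK1A 1B at 4.0%, the ratio is nearly flat, and the normalized sums do not overlap between the groups.

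The promoters of the members were read from RefSeq (GRCh38.p14, 300 bases per gene, 250 of them before the listed start), where 38 of the 46 symbols matched. The study is concerned with a palindrome of 10 bases at ribosomal protein gene promoters, TCTCGCGAGA, and 7 of its letters, TCTCGCG, were searched as a core on both strands, where the 2 strands of a palindrome overlap. The core was in 9 of the 38 promoters (23.7%), beside 3.49% of all 35116 promoters of this length. The whole palindrome was in 2, those of RPL17 and RPL26, beside 0.424% of all promoters. Both are among the 3 least abundant members, whose counts are uncertain. The windows of 30 bases around the match are shown with the match in capitals, 5′ to 3′, to compare the whole palindrome with partial ones at RPL12 and RPL7A.
RPL26 (chr17:8383223-8383252, minus strand): gagacataggTCTCGCGAGAtctttggtaa
RPL17 (chr18:49492511-49492540, minus strand): cggctacgaaTCTCGCGAGAagtcaagttc
RPL12 (chr9:127451442-127451471, minus strand): tgacgacagtTCTCGCGatagccgcgtttt
RPL7A (chr9:133348161-133348190, plus strand): cggtatcaacTCTCGCGatctccgaggccg

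Members with the core had a median log2 fold change of -0.03 as a share of human counts, over the 8 tested, and those without it -0.02 over 28. One gene with the core, RPL26, was lower, as were 3 without it, RPL3, RPL9 and RPL14, beside 24.8% of all genes. Without shDYRK1A 1B, 3 of the 8 with the core and 10 of the 28 without it were lower, beside 25.3% of all genes. RPL28 and RPL41, both higher, lacked the core.

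The promoters that the study lists as occupied by DYRK1A in T98G cells belong to RPL3, RPL7A, RPL10A, RPL12, RPL15, RPL17, RPL23A, RPL24, RPL26 and RPL27A. The 9 of these that were tested had a median log2 fold change of -0.07 as a share of human counts, and the 35 others 0.00. RPL3 and RPL26 were the 2 called lower and 0 were called higher, and of the 35 others 4 were lower and 3 higher, beside 24.8% and 30.2% of all genes. Among the occupied promoters that did not pass, RPL15 was at 0.00 ± 0.04 (adjusted p = 0.99), RPL7A at -0.07 ± 0.04 (adjusted p = 0.156), RPL23A at 0.04 ± 0.05 (adjusted p = 0.479) and RPL27A at 0.08 ± 0.07 (adjusted p = 0.377). Without shDYRK1A 1B, 4 of the 9 were lower, RPL3, RPL7A, RPL12 and RPL24, and 11 of the 35 others, beside 25.3% of all genes. In that fit 0 of the 9 and 3 of the 35 others were higher, beside 34.4% of all genes. With spike-in scaling all 9 were lower, as were 30 of the 35 others and 63.4% of all genes, at medians of -0.50 and -0.43.

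A run of at least 6 pyrimidines near the listed start was in 30 of the 38 promoters, beside 26.3% of all promoters, and the median run was 11.5 bases in the members and 4 overall. Genes from both ends of the ranking had it, as the 30 bases around the start show, with the run in capitals.
RPL14 (chr3:40457324-40457353, plus strand): gggcgggTCTTCTTCCTTCTCgcctaacgc
RPL9 (chr4:39458908-39458937, minus strand): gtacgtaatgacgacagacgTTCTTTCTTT
RPL28 (chr19:55385917-55385946, plus strand): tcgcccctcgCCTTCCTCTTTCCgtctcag
RPL41 (chr12:56116618-56116647, plus strand): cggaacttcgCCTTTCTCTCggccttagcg

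The length of the run and the fold change as a share of human counts had a rho of 0.20 over 36 genes. The 19 members with a small nucleolar RNA gene inside them, which guides the modification of rRNA and other RNAs, had a median of 0.03 over the 18 tested, and those without one -0.02 over 26.

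A list of 8 members mutated in Diamond-Blackfan anaemia, an inherited failure of red cell production, was also taken. It is not complete for the disease, and held RPL5, RPL11, RPL15, RPL18, RPL26, RPL27, RPL35 and RPL35A. All 8 were lower with spike-in scaling, beside 63.4% of all genes, and RPL5 and RPL26 were lower as a share of human counts, 2 of 8 beside 24.8% of all genes. Their medians were -0.45 and -0.02. Without shDYRK1A 1B the 2 lower as a share were RPL5 and RPL27 (adjusted p = 6.11e-06 and 0.000635), beside 25.3% of all genes.

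The small subunit genes served as the nearest comparison. As a share of human counts 5 of 32 tested were lower and 9 higher, beside 24.8% and 30.2% of all genes. With TMM normalization 5 were lower and 5 higher, beside 2769 and 2652 of all 9697 genes. Without shDYRK1A 1B, 13 were lower and 6 higher, beside 25.3% and 34.4% of all genes. With spike-in scaling 22 of 32 were lower, beside 63.4%. RPS3A was the lowest (log2 fold change -0.33 ± 0.04) and FAU, which encodes the small subunit protein eS30 fused to a ubiquitin-like domain, the highest (0.32 ± 0.06). The ratio of large to small subunit counts was 1.37, 1.36 and 1.37 in shControl and 1.38, 1.37 and 1.38 in shDYRK1A, a difference of 0.01 on the log2 scale. The shDYRK1A 1B library, apart in the share of human counts, was within the range of the controls in this ratio.

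Of the large subunit genes that the naming rule leaves out, RPL22L1, a paralog of RPL22, was at 46.6, 38.4 and 41.9 CPM in shControl and at 26.1, 32.0 and 24.9 CPM in shDYRK1A, with a log2 fold change of -0.61 ± 0.10 as a share of human counts (adjusted p = 0.00021). RPL22 itself was at -0.02 ± 0.06 (adjusted p = 0.755).

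Among the assembly factors of the large subunit, 26 of 58 tested were lower and 7 higher as a share of human counts, beside 24.8% and 30.2% of all genes, and 51 were lower with spike-in scaling, beside 63.4%. Their medians were -0.10 and -0.53, beside 0.00 and -0.43 for the ribosomal proteins and 0.02 and -0.40 for all genes. Without shDYRK1A 1B, 28 were lower and 6 higher as a share, beside 25.3% and 34.4% of all genes. In that fit the medians were -0.11 for the assembly factors, -0.07 for the ribosomal proteins and 0.04 for all genes. NMD3, the adaptor that exports the subunit from the nucleus, was the lowest at 86.2, 86.3 and 83.4 CPM in shControl and 51.0, 42.8 and 51.6 CPM in shDYRK1A. Its log2 fold change was -0.81 ± 0.07 as a share of human counts (adjusted p = 1.75e-06). ZNF593 was the highest at 0.35 ± 0.10 (adjusted p = 0.00827).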

How the data were processed

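The authors deposited raw counts per gene for each library, from mRNA reads that were paired and stranded (the submitters' processing notes name STAR, DESeq2 and the builds hg38 and dm3). A table of normalized signal, also deposited, equals the counts divided by a size factor for the library, based on Drosophila reads according to the methods. These factors were taken over as they are, since fly counts were not analysed here. The authors' own comparison, with log2 fold changes and p-values, was not used. Unmapped, multimapping, feature-less and ambiguous reads stayed out of library sizes. Genes with a mean normalized CPM above 10 were kept (9697), and tested with the robust quasi-likelihood test of edgeR 4.0.16, with spike-in size factors and again with total human gene counts as library size. P-values were adjusted by Benjamini-Hochberg over all 9697 genes. The steps were tested on simulated data. Alternatives were DESeq2 1.42.0, TMM, DESeq2 size factors, other filters, a replicate block and leaving out each library. Gene coordinates are those of GENCODE v29 (GRCh38). They matched the authors' table for 95.6% of its genes and for 37 of the 46 members, and RPL26 and RPL5 are among the members that differed. Ratios within a library were compared by two-sided exact permutation tests in scipy 1.17.1. Values are in CPM of human gene counts unless stated. The precision of a count depends on its number of reads. Members and gene lists were chosen with earlier results of these data known. Genes named with values are the 5 lowest and 5 highest members by fold change with spike-in scaling, members of the structural lists, members occupied by DYRK1A, the 3 most and least abundant per coding length and those under the filter, and from other lists the lowest and highest gene by fold change. RPL3 and RPL7, past the test, and RPL18, RPL6, RPL22, RPL27, RPL36, RPL32 and RPL37, named in counts, were added after their values were seen. The values of some genes are not reported here.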

Additional observations from a re-analysis of the deposited data

How the results depend on the processing

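With spike-in scaling 39 members were lower, 40 or 41 with DESeq2, either other filter or the replicate block, and 24 to 44 when 1 library was left out. As a share of human counts 6 were lower, 6 to 9 under the other filters, DESeq2, TMM and DESeq2 size factors, and 4 to 15 when 1 library was left out, the 15 being without shDYRK1A 1B. The 3 higher members became 5 with the DESeq2 Wald test and 5 with no filter beyond 1 count, and 2 to 6 when 1 library was left out. The cause was not tested. Of the alternatives, the number of all genes called is given above only for TMM and for the fit without shDYRK1A 1B. Changes of the counts in the other settings therefore cannot be read as particular to the members. The group difference in the share of human counts was -0.162 to 0.0800 percentage points when 1 library was left out, so that its sign depends on the library. DYRK1A stayed lower and past the test in each alternative, on both scales.

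With the replicate block 40 members were lower on the spike-in scale, and 7 lower and 3 higher as a share of human counts. The deviations of libraries with the same letter correlated at 0.151 (1A), 0.0728 (1B) and 0.128 (1C), and each library correlated best with its own letter, which is a hint from the data and not from the design, so the letters were not treated as pairs.

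Members near 0 as a share of human counts changed sign in some settings, and their log2 fold changes did not pass the test in those settings. The ranges given here also hold fits that kept the sign. One of these passed, RPL31 at -0.128 without shDYRK1A 1B (adjusted p = 0.00715). With TMM they were -0.0178 for RPL19 and -0.0198 for RPL15, and with DESeq2 size factors -0.0147 for RPL19 and -0.0166 for RPL15. When 1 library was left out they ran from -0.0916 to 0.0445 for RPL11, from -0.0165 to 0.0525 for RPL10A, from -0.0559 to 0.0314 for RPL19, from -0.00404 to 0.0772 for RPL23A, from -0.128 to 0.012 for RPL31, from -0.0262 to 0.152 for RPL35, from -0.032 to 0.073 for RPL23, from -0.0338 to 0.0276 for RPL15 and from -0.026 to 0.149 for RPL27A.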
